A study of Bos taurus with 3 samples.

Results

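The miR-30 family was followed in small RNA libraries made from large dense-core vesicles of bovine chromaffin cells. The members were chosen by name from the deposited count table, as every mature miRNA named miR-30a to miR-30f, whatever its arm or hairpin. This gave 7 of the 793 annotated mature miRNAs, on 6 hairpins with 1 row for each mature miRNA. Of the members 6 are the product named for the hairpin or its 5p arm (miR-30a-5p, miR-30b-5p, miR-30c, miR-30d, miR-30e-5p and miR-30f) and miR-30b-3p comes from the opposite arm. All 7 passed the filter of at least 10 counts in 1 or more libraries, each of them in all 3.

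Chromaffin cells are the hormone-secreting cells of the adrenal medulla, and their dense-core vesicles store catecholamines and peptides. The series holds 1 library labelled a biological replicate and 2 labelled technical replicates, all from purified vesicles of cows from a local slaughterhouse, with 500 ng of RNA in each library. No group carries a treatment or a genotype, and the labels give neither the repeated step nor the number of animals, so the comparison asks how far the values repeat in another preparation. The technical pair was averaged and counted as 1 preparation, so means and SDs are over n = 2 preparations, and no whole-cell or other fraction was analysed here.

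With every mature miRNA counted a single time, the biological replicate held 6708654 counts and technical replicates 1 and 2 held 5546771 and 6251664 counts. Levels are given in CPM, which scales each count to a common library total. The endocrine miRNAs miR-375 and miR-7, which mark neuroendocrine cells, together took 47.3% of counts in the biological replicate, against 44.1% and 42.8% in technical replicates 1 and 2. Intervals cover counting error only and treat each read as independent. Reads without molecular identifiers are not independent molecules, so the intervals can be too narrow even for that error.

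miR-30 is a broadly expressed miRNA family of vertebrates. A miRNA guides an Argonaute protein to mRNAs that pair with its seed, the stretch near its 5′ end, and lowers their translation and stability. Members named for the 5p arm share a seed in human and mouse and differ downstream of it, where miR-30a, miR-30d and miR-30e are closest to each other and miR-30b and miR-30c form the other branch. Members that differ by so few bases are hard to count apart, and how reads that match several of them were divided is not given in the sources used here. In mammals the family is known for roles in differentiation and autophagy, miR-30a through the autophagy gene BECN1, and miR-30d has been linked to insulin production in pancreatic beta cells.

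The family held 2.45% of all miRNA counts in the biological replicate (exact 95% interval 2.44 to 2.46%), against 2.64% (2.62 to 2.65%) and 2.54% (2.53 to 2.56%) in technical replicates 1 and 2. The mean share was 2.52% ± 0.0978 (SD, n = 2 preparations). The biological replicate had the lowest share, by about the gap between the technical libraries themselves.

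Most of that share was miR-30d (MIMAT0003533). It had 20072 CPM in the biological replicate, compared with 19693 and 18453 CPM in technical replicates 1 and 2. Its level was thus highest in the biological replicate, close to technical replicate 1, and its rank among all mature miRNAs was 9 in the biological replicate and in technical replicate 1 and 11 in technical replicate 2. Of the family's own reads, miR-30d took 81.9% in the biological replicate (exact 95% interval 81.7 to 82.1%), against 74.7% (74.5 to 74.9%) and 72.6% (72.3 to 72.8%) in technical replicates 1 and 2. The family was therefore more concentrated on its leading member in the biological replicate, beyond counting error and beyond the gap between the technical libraries.

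The second member was miR-30a-5p (MIMAT0003841), with 2802 CPM in the biological replicate, compared with 4608 and 4696 CPM in technical replicates 1 and 2. The biological replicate was below both technical libraries, as it was for 59.1% of all tested miRNAs by CPM. The technical libraries lay close together. miR-30e-5p (MIMAT0003799), which like miR-30d is close to miR-30a in human and mouse, had 679 CPM in the biological replicate, compared with 935 and 966 CPM in technical replicates 1 and 2. It too was lowest in the biological replicate, with the technical pair close together. miR-30a-5p made up 11.4% of the family in the biological replicate, against 17.5% and 18.5% in technical replicates 1 and 2, so among the members with a smaller share there, miR-30a-5p had the widest gap.

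miR-30c, miR-30b-5p and miR-30f were scarcer. miR-30c (MIMAT0003850) had 633 CPM in the biological replicate, compared with 659 and 787 CPM in technical replicates 1 and 2. Its technical libraries were further apart than the biological replicate was from technical replicate 1. miR-30b-5p (MIMAT0003547) had 234 CPM in the biological replicate, compared with 347 and 392 CPM in technical replicates 1 and 2. Like miR-30c, it was below both technical libraries in the biological replicate. miR-30f (MIMAT0009282), a member annotated in cattle, had 87.05 CPM in the biological replicate, compared with 112 and 135 CPM in technical replicates 1 and 2. It was again lowest in the biological replicate, and its technical libraries differed by 0.28 on the log2 CPM scale, the widest technical gap of the 7 members. Together these 3 miRNAs held 3.89% of the family's reads in the biological replicate, against 4.24% and 5.17% in technical replicates 1 and 2.

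The opposite arm of miR-30b was close to the lower end of detection. miR-30b-3p (MIMAT0012534) had 30 counts in the biological replicate, against 25 and 28 counts in technical replicates 1 and 2, or 4.47 CPM against 4.51 and 4.48 CPM. The exact Poisson interval in the biological replicate ran from 3.02 to 6.38 CPM, so no difference was detectable at this depth. Of all reads from the miR-30b hairpin, the 5p arm took 98.1% in the biological replicate (exact 95% interval 97.3 to 98.7%), against 98.7% (98.1 to 99.2%) and 98.9% (98.4 to 99.2%) in technical replicates 1 and 2. The intervals overlap. For scale, the more abundant arm took a median of 94.1% over the 37 hairpins with both arms annotated and at least 100 reads in every library, and 11 of these had a higher share for one arm than miR-30b. The deposited counts name no opposite arm for the other miR-30 hairpins.

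**Figure D1:**
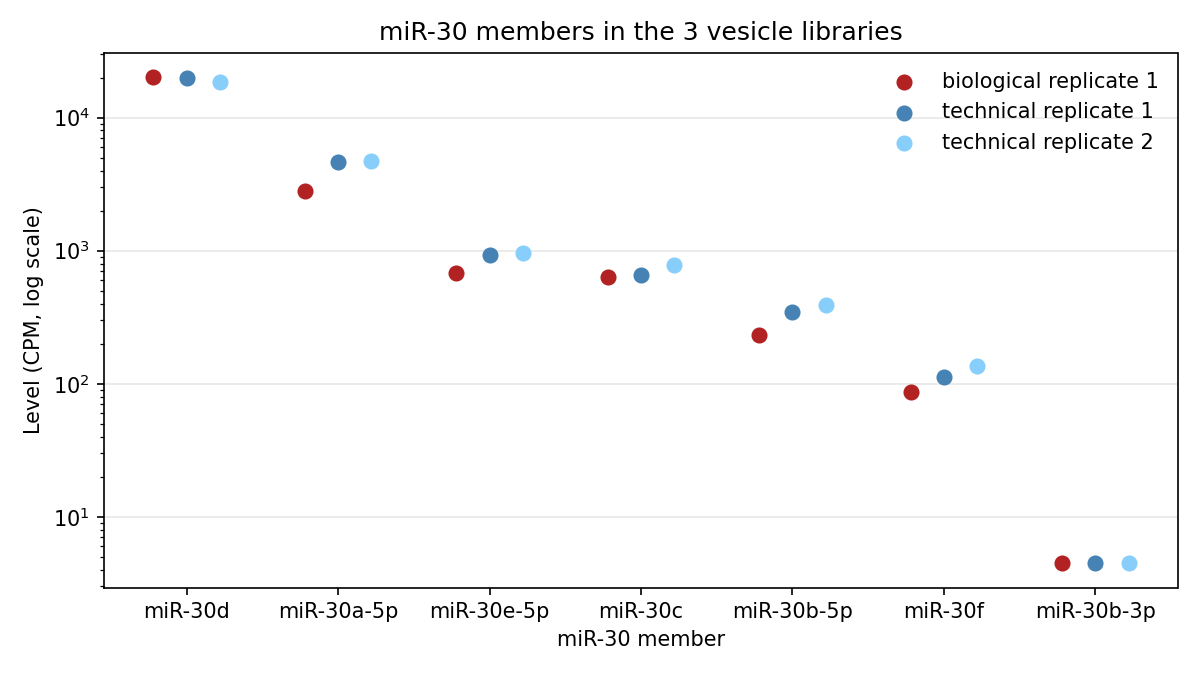
Level of each miR-30 member in CPM (log axis) in the biological replicate and technical replicates 1 and 2, 1 point per library, with members ordered by mean level. miR-30d lies near 20072 CPM in the biological replicate and miR-30b-3p near 4.47 CPM, and the biological point is below both technical points for the members from miR-30a-5p to miR-30f.

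By mean level the order was miR-30d, miR-30a-5p, miR-30e-5p, miR-30c, miR-30b-5p, miR-30f and miR-30b-3p, and it held in each of the 3 libraries. The ranges of adjacent members over the libraries were separate with 1 exception, miR-30e-5p and miR-30c. miR-30e-5p was higher than miR-30c in each library, by 1.07 times in the biological replicate and by 1.42 and 1.23 times in technical replicates 1 and 2, but its level in the biological replicate was under that of miR-30c in technical replicate 2. miR-30d exceeded miR-30a-5p by 7.16 times in the biological replicate, against 4.27 and 3.93 times in technical replicates 1 and 2. Adapter ligation is known to favour some small RNAs over others, so the order is that of reads and not of molecules.

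Between the preparations, 4 of the 7 members fell in the biological replicate and none rose (edgeR's quasi-likelihood test on all tested miRNAs, Benjamini-Hochberg adjusted p below 0.05). Over all 367 miRNAs tested, 20.2% were called lower and 17.7% higher. miR-30a-5p fell by 0.55 ± 0.10 on the log2 scale (SE, edgeR adjusted p = 1.1e-06), the strongest drop of the family. miR-30b-5p fell by 0.48 ± 0.11 (SE, edgeR adjusted p = 5.8e-05). miR-30e-5p fell by 0.30 ± 0.10 (SE, edgeR adjusted p = 0.0071). miR-30f fell by 0.32 ± 0.13 (SE, edgeR adjusted p = 0.034), and its call was lost in 5 of 9 alternative fits, with adjusted p-values of 0.056 to 0.22 in those, among them DESeq2 and library totals.

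The other 3 members did not pass. miR-30d had a log2 fold change of 0.25 ± 0.12 (SE, edgeR adjusted p = 0.088) and an unadjusted p of 0.039, which made it the only member higher at an unadjusted p below 0.05. Over the 9 alternative fits, 5 (DESeq2 among them) also had 1 such member and 4 had none, and with library totals the fold change of miR-30d was 0.07 (edgeR adjusted p = 0.56). miR-30c had -0.01 ± 0.10 (SE, edgeR adjusted p = 0.95). miR-30b-3p had 0.18 ± 0.32 (SE, edgeR adjusted p = 0.75), a value set by the scaling, since with library totals it was -0.0065.

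The test takes its spread from the technical libraries alone (1 residual degree of freedom), shares it over all tested miRNAs and applies it to the single biological library. Its p-values thus speak of these libraries and not of animals, and they moved with the fit. The edgeR adjusted p of miR-30a-5p was 1.1e-06 in the main fit and 0.0069 with DESeq2's scaling in edgeR. Its log2 fold change was nearly the same, at -0.55 and -0.56. TMM scaling, which lines up the bulk of miRNAs between libraries, raised the biological replicate by 0.18 log2 units relative to library totals. With library totals 3 of the 7 members were called lower and none higher, and the split over all tested miRNAs turned to 23.4% lower and 6.54% higher. DESeq2 also called 3 of the 7 lower and none higher, where it called 11.4% of all tested miRNAs lower and 12.0% higher. It gave no adjusted p for miR-30b-3p, and any miRNA without one is counted as not called. By CPM alone, 6 of the 7 members were below both technical libraries and miR-30d was above both, where 59.1% of all tested miRNAs were below both and 24.5% above both. The 6 include miR-30b-3p, whose 3 values differ by less than counting error.

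**Figure D2:**
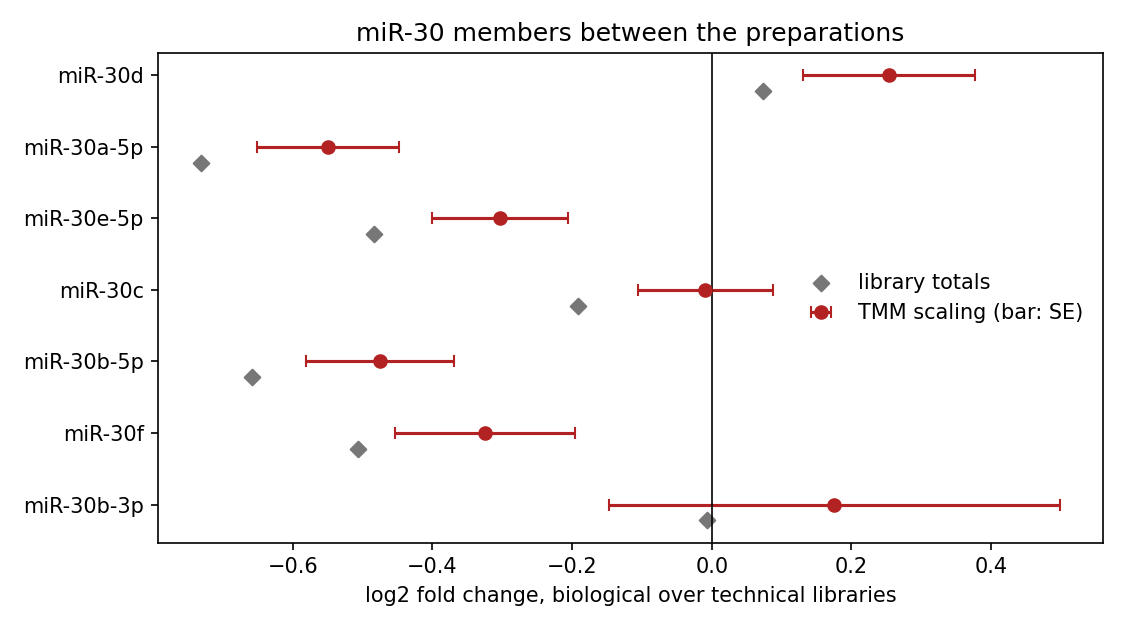
Log2 fold change of each miR-30 member, biological over technical libraries, by edgeR with TMM scaling (circles, bars are the SE) and with library totals (diamonds). miR-30a-5p, miR-30b-5p, miR-30e-5p and miR-30f lie left of 0 under either scaling, and miR-30d lies right of 0 at 0.25 with TMM and 0.07 with library totals.

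The direction of the summed family depended on the scaling. The log2 ratio of the summed family, biological over technical, was 0.10 with TMM and -0.08 with library totals. Without miR-30d, a sum chosen after seeing the data, the ratio was -0.44 with TMM and -0.62 with library totals. The 6 members other than miR-30d together held 0.444% of all counts in the biological replicate, against 0.666% and 0.698% in technical replicates 1 and 2. The groups do not overlap, which was fixed in advance, since by CPM each of the 6 was below both technical libraries. The technical gap was small beside the difference between the preparations. miR-30a-5p with miR-30e-5p had a summed log2 ratio of -0.51, and miR-30b-5p, miR-30c and miR-30f together had -0.16, both with TMM. With library totals these ratios were -0.69 and -0.34. The branch of miR-30a-5p, miR-30d and miR-30e-5p, summed because its members are the hardest to count apart, had 0.11 with TMM and -0.07 with library totals, so its direction also turned with the scaling.

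Ratios of members within a library need no scaling at all. There were 14.0 reads of miR-30a-5p per 100 of miR-30d in the biological replicate (exact 95% interval 13.7 to 14.2), against 23.4 (23.1 to 23.7) and 25.5 (25.1 to 25.8) in technical replicates 1 and 2. The biological value lay well below both, and the technical values were also apart by more than counting error. miR-30e-5p had 3.38 reads per 100 of miR-30d in the biological replicate, against 4.75 and 5.23 in technical replicates 1 and 2. miR-30f had 0.434, against 0.568 and 0.733. miR-30c had 3.15 in the biological replicate, against 3.35 and 4.26 in technical replicates 1 and 2, so the technical libraries differed more from each other than the biological replicate did from the nearer of them. All 5 other members named for the 5p arm or the hairpin were thus lower relative to miR-30d in the biological replicate than in either technical library. This follows from the CPM levels, where these 5 were below both technical libraries and miR-30d was above both. It is therefore no separate evidence.

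The 6 hairpins form 3 pairs on shared chromosomes in RefSeq's annotation of the assembly ARS-UCD2.0, which was used for neighbourhood only because the submitters' processing notes name UMD3.1. miR-30d and miR-30b are adjacent, with no gene annotated between them. miR-30c and miR-30e are adjacent as well, and both lie inside NFYC, which encodes a subunit of the transcription factor NF-Y. miR-30f and miR-30a are separated by the start of 1 annotated gene, LOC132346186, inside which miR-30a lies. Neighbouring miRNA hairpins are often cut from a common transcript.

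The ratio of miR-30b-5p to miR-30d differed most between the preparations among these pairs. There were 1.17 reads of miR-30b-5p per 100 of miR-30d in the biological replicate (exact 95% interval 1.11 to 1.23), against 1.76 (1.68 to 1.84) and 2.12 (2.04 to 2.21) in technical replicates 1 and 2. The log2 ratio differed by -0.73 between the biological replicate and the technical mean, and by 0.27 between the technical libraries. These members had TMM log2 fold changes of -0.48 for miR-30b-5p and 0.25 for miR-30d.

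The other neighbour pairs differed less. There were 3.11 reads of miR-30f per 100 of miR-30a-5p in the biological replicate (exact 95% interval 2.86 to 3.37), against 2.43 (2.24 to 2.63) and 2.88 (2.69 to 3.09) in technical replicates 1 and 2. The difference between the biological replicate and the technical mean was 0.23 on the log2 scale, no more than the 0.25 between the technical libraries. For miR-30c and miR-30e-5p there were 93.2 reads of miR-30c per 100 in the biological replicate (exact 95% interval 89.3 to 97.2), against 70.5 (67.6 to 73.6) and 81.4 (78.4 to 84.6) in technical replicates 1 and 2. That difference was 0.30 on the log2 scale, against 0.21 between the technical libraries. Small and large differences were also found for members that are not neighbours. For miR-30b-5p over miR-30a-5p the difference was 0.08, and for miR-30e-5p over miR-30a-5p it was 0.25. For miR-30a-5p over miR-30d it was -0.81. A link between neighbourhood and these ratios was not tested.

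**Figure D3:**
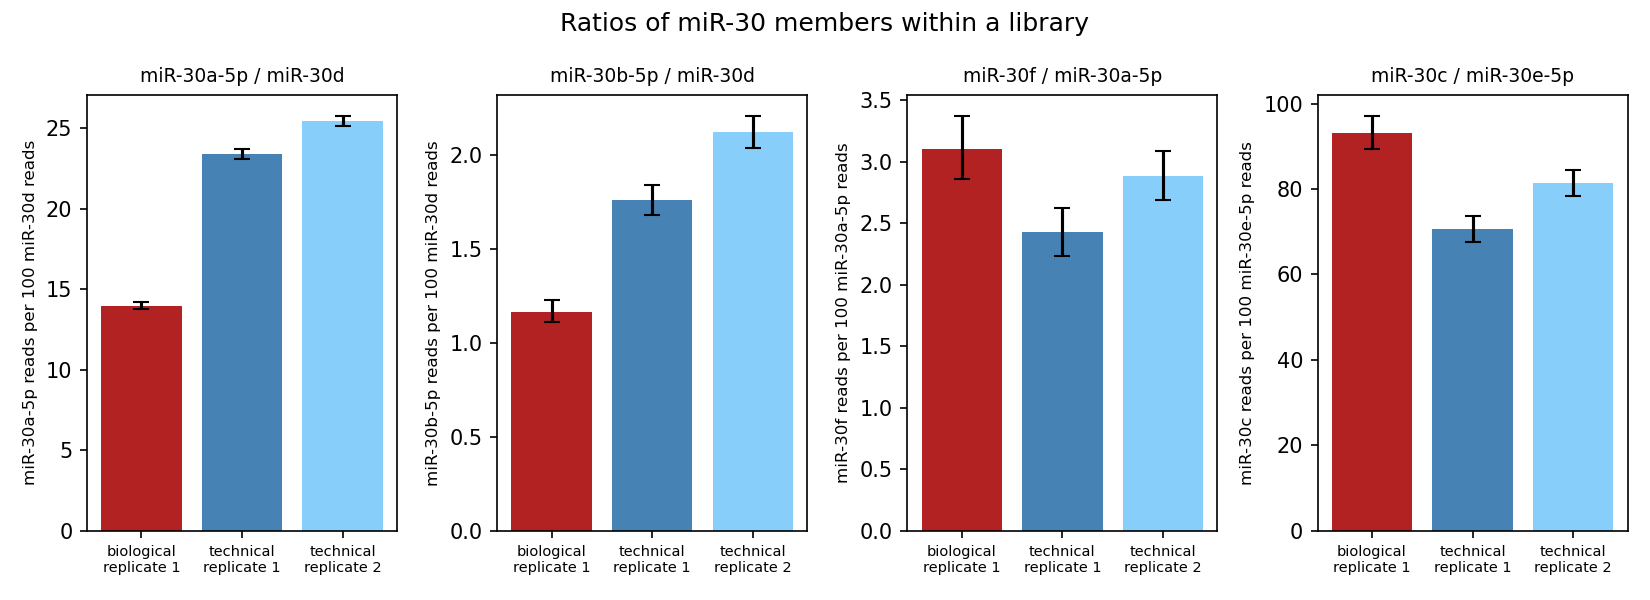
Reads of 1 miR-30 member per 100 reads of another in each library (bars, linear axes from 0), with exact 95% intervals that cover counting error only. For miR-30a-5p and miR-30b-5p over miR-30d the biological replicate stands at 14.0 and 1.17, below both technical libraries, while for miR-30f over miR-30a-5p the technical libraries are as far apart as the preparations.

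Set beside all tested miRNAs, the members covered much of the range of abundance. The median log2 fold change was -0.30 over the 7 members and 0.01 over all 367 tested miRNAs. With library totals the medians were -0.48 and -0.17. The largest fold change of the family, that of miR-30a-5p, stayed under 1 log2 unit, as did those of all members.

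**Figure D4:**
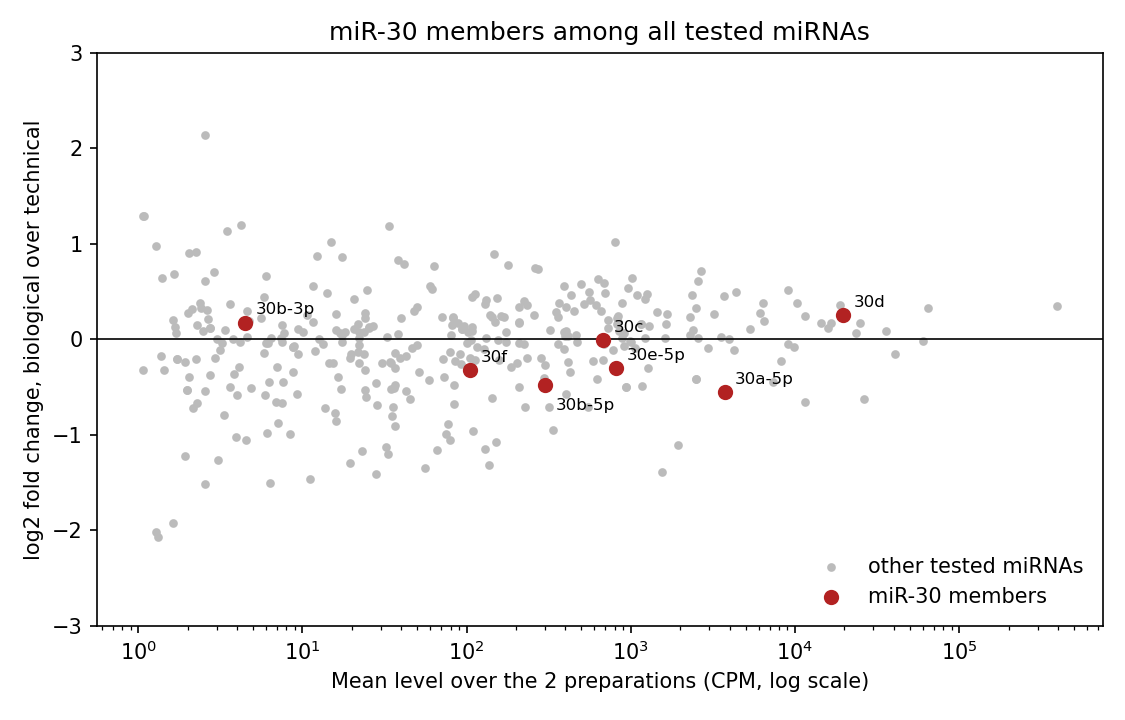
Log2 fold change, biological over technical libraries (edgeR, TMM), against mean level over the preparations (CPM, log axis) for the 7 miR-30 members and 360 other tested miRNAs, of which 1 falls outside the axis. The members run from -0.55 for miR-30a-5p to 0.25 for miR-30d.

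Among other families of closely related miRNAs, the calls and median of let-7 went the opposite way to those of miR-30. Those of miR-29 went the same way as those of miR-30. Members count equally here, and miR-30d, which held most of the miR-30 reads, had 0.25 (edgeR, TMM) and was not called. The direction of the summed miR-30 family turned with the scaling. In the let-7 family with miR-98, known for timing of development and differentiation, 6 of 10 tested members were called higher and none lower, with a median log2 fold change of 0.32 (edgeR, TMM). At an unadjusted p below 0.05 the let-7 count was 6 higher and none lower, and in DESeq2 it was 5 higher and none lower after adjustment. With library totals only 1 of the 10 was called higher and none lower, and the median was 0.14. In the miR-29 family, known for targeting collagen mRNAs, 3 of 5 tested members were called lower and none higher, with a median of -0.41. At an unadjusted p below 0.05 the miR-29 count was 4 lower and none higher, and DESeq2 called 3 lower and none higher. With library totals 4 of the 5 were called lower. Over all 367 tested miRNAs, 81 were higher and 86 lower at an unadjusted p below 0.05. After adjustment, 20.2% of them were called lower and 17.7% higher in edgeR with TMM. These shares were 23.4% and 6.54% with library totals, and 11.4% and 12.0% in DESeq2. No test compared the families with each other.

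Among 60 other miRNAs averaging 1000 CPM or more, the 5 whose pattern over the 3 libraries was nearest to that of the summed family were miR-125b, miR-125a, let-7c, miR-107 and miR-27b. Likeness was the Euclidean distance of log2(CPM + 1), centred on each miRNA's own mean over the libraries. The distance ran from 0.028 for miR-125b to 0.076 for miR-27b, against a median of 0.20 over the 60. miR-125b had 34561 CPM in the biological replicate, compared with 38029 and 35783 CPM in technical replicates 1 and 2. With 3 libraries, this likeness is a description of levels that varied little. Within the family the distance to the sum was 0.068 for miR-30b-3p, 0.13 for miR-30d and at most 0.54, that of miR-30a-5p. The summed family was lowest in the biological replicate by CPM, while miR-30d was highest there.

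Most lists of miRNAs known from other cell types were also lower in the biological replicate. For scale, 20.2% of all 367 tested miRNAs were called lower there and 17.7% higher. The list of smooth muscle and fibroblast miRNAs held 1.22% of counts in the biological replicate, against 1.98% and 2.19% in technical replicates 1 and 2. Of its 7 members, 6 were called lower. Most of this sum was miR-143, averaging 11445 CPM over the preparations and changing by -0.66 on the log2 scale. The member not called, miR-145, was scarce, at a mean of 1.93 CPM, and stood at -0.24 (edgeR adjusted p = 0.78). miR-199a-3p and miR-199c on this list had identical counts, and with these reads counted once the share was 1.02% in the biological replicate, against 1.68% and 1.89% in technical replicates 1 and 2, with 5 of 6 members lower. Both endothelial miRNAs, the arms of miR-126, were called lower, and together held 0.113% of counts in the biological replicate, against 0.182% and 0.189% in technical replicates 1 and 2. The leukocyte list held 0.0123% in the biological replicate, against 0.0281% and 0.0280%, with 2 of 5 tested members lower. The erythrocyte list was higher, with 0.110% in the biological replicate, against 0.0898% and 0.0837%, and 1 of 2 tested members was called higher. That sum was almost all miR-486, higher by 0.53 log2 units (edgeR adjusted p = 2.9e-07), while miR-451 had -0.19 and did not pass (edgeR adjusted p = 0.51). Of the endocrine miRNAs, miR-375 had a log2 fold change of 0.35 and miR-7 had -0.02, and neither passed (edgeR adjusted p = 0.23 and 0.95). No miRNA on these lists was at 0 in every library. Their part in the fall of miR-30a-5p, miR-30b-5p, miR-30e-5p and miR-30f was not tested, and fewer cells of a type cannot be told apart from less of a miRNA per cell or vesicle.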

How the data were processed

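Total RNA of purified vesicles was made into NEBNext small RNA libraries, per the labels' protocols. The authors deposited raw read counts per mature miRNA and precursor, and CPM values equal to the count over the column total within rounding. The authors also deposited log2 values, used only as an alternative. Tested on the file, these are log2(CPM + 0.1) over 459 rows. The submitters' processing notes name UMD3.1 and edgeR. Neither aligner nor counter is given in the sources used here.

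Of the 793 mature miRNAs, 73 have several hairpins, and of each the hairpin row with most counts was kept (no miR-30 member is among them). CPM were recomputed from these totals. The biological library was tested against the technical pair with edgeR 4.0.16 (TMM, estimated dispersions, quasi-likelihood F test, R 4.3.3) on the 367 miRNAs that reached 10 counts in any 1 library, and p-values were adjusted by Benjamini-Hochberg (threshold 0.05). SEs were derived from the fold change and F. The procedure was tested on simulated data, with the same spread for the single library as for the pair and changes larger than those of any member. It therefore cannot say whether a biological library varies like technical ones. Alternatives were other scalings, filters, row handling and DESeq2 1.42.0. Intervals on shares are exact Clopper-Pearson at 95%. A count of 0 would allow 3 counts, or 0.447 to 0.541 CPM. All members are named; the 5 nearest patterns followed a rule on distance. The members and lists were chosen with earlier results of these data known.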

Additional observations from a re-analysis of the deposited data

How the results depend on the processing

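The count of members called lower was 4 or 3 of 7 in each of the 9 alternative fits (of 6 tested when miRNAs under 100 CPM were left out), and none was called higher in any of them. In DESeq2, miR-30b-3p had no adjusted p and counts as not called. Fits without miR-375 and with edgeR's newer quasi-likelihood method, the sum without miR-30d, and the muscle and fibroblast list without repeated counts, were chosen after seeing the data. miR-30a-5p, miR-30b-5p and miR-30e-5p passed in all 9, with highest adjusted p-values of 0.0069, 0.015 and 0.032. miR-30f passed in 4. miR-30b-3p turned to -0.0065 with library totals. The family's share was 1.91% when precursor rows were summed and 4.16% with miR-375 left out of the total, since the denominators change, and ran from 2.50% to 2.59% when any library was left out. The summed family's log2 ratio was -0.079 with library totals, -0.047 in the authors' log2 table (which holds no TMM factor) and -0.44 without miR-30d. It lay between 0.05 and 0.15 with a technical library left out, as a value with no test, since 1 library against 1 leaves no residual degree of freedom. The 5p share of the miR-30b hairpin ran from 98.4% to 98.8% when any library was left out. No paired analysis was possible because there is 1 biological library and the labels state no pairing. At 25 to 30 counts, depth limits miR-30b-3p.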
